A study of Mus musculus with 8 samples.

Results

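Compaction is the step at which the loosely packed blastomeres of the mouse embryo flatten against each other, between the 8-cell stage and the morula. The values of 10 genes with roles in it were followed here: Cdh1, Ctnnb1, Ctnna1, Pard3, Pard6b, Prkci, Ezr, Myh9, Rhoa and Amot. They were chosen by name for their roles in the process, with earlier results of these data known, and all 10 were found among the 19893 genes that could be assigned in both deposited tables. The study sequenced RNA from cultured embryos of superovulated ICR mice, collected as 8-cell embryos or as morulae, with or without trimetazidine (TMZ), a drug that blocks the last step of fatty acid β-oxidation. There were 8 libraries, 2 in each of 4 groups: 8-cell control, 8-cell TMZ, morula control and morula TMZ. Control and treated embryos alike were kept in KSOM, a culture medium for early embryos, and the treated ones received 100 µM TMZ from the 2-cell stage. The labels give the controls the genotype WT and put the words TMZ inhibitor in the genotype field of the treated embryos, so the groups differ by the drug and no allele is named. How many embryos made up a library is not given in the sources used here.

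At compaction E-cadherin, the product of Cdh1, joins neighbouring cells through its extracellular part, while inside the cell β-catenin (Ctnnb1) and α-catenin (Ctnna1) connect it to actin. At the same stage each blastomere gains an outward-facing apical domain that holds the PAR complex of PAR3 (Pard3), PAR6B (Pard6b) and the atypical protein kinase C iota (Prkci), together with ezrin (Ezr), which ties membrane proteins to actin. The small GTPase RHOA (Rhoa) and non-muscle myosin IIA heavy chain (Myh9) act in contraction of the actin cortex, and angiomotin (Amot) is a Hippo pathway component that is held apically in polar cells and at junctions in apolar ones. Much of this machinery is supplied or regulated as protein, so the RNA levels given below are levels of transcripts only.

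The genes lie on 8 different chromosomes of GRCm39, the build used by the authors. Cdh1 (ENSMUSG00000000303) is at chr8:107329941-107396880, on the same chromosome as Pard3 (ENSMUSG00000025812, chr8:127790392-128338767). Ctnnb1 (ENSMUSG00000006932, chr9:120757422-120789579) shares chromosome 9 with Rhoa (ENSMUSG00000007815, chr9:108182242-108215142). Ctnna1 (ENSMUSG00000037815) is at chr18:35226033-35387833, Pard6b (ENSMUSG00000044641) at chr2:167922803-167943123 and Prkci (ENSMUSG00000037643) at chr3:31049886-31107108. Ezr (ENSMUSG00000052397) is at chr17:7005440-7050611, Myh9 (ENSMUSG00000022443) at chr15:77644785-77726381 and Amot (ENSMUSG00000041688) at chrX:144229421-144288177. Of the 31-base words in the exons of these genes, 0 to 2.80% occurred again elsewhere in the genome for 9 of them. For Rhoa the share was 19.2%, so part of its fragments could have been counted elsewhere or not at all, and its level is uncertain to that extent.

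The tables carry values but no gene names, and each entry was given a gene from its recovered length and its place in the order of Ensembl identifiers. For 3 members, Cdh1, Ezr and Amot, the recovered length was that of the annotated exons (4574, 3290 and 8402 bases). For the other 7 it was shorter than annotated by 4 to 251 bases, and Pard6b had the largest relative difference, with 3399 recovered against 3520 annotated bases (-3.44%). In both tables the entries directly before and after that of Pard6b were given to the genes next to it in identifier order. Of its 10 nearest entries, 7 and 6 had an annotated length, or that length divided by a whole number of up to 12. Both neighbours were the adjacent genes for 8 of the 10 members, but not for Amot in either table or Myh9 in the morula table. Length matches were fewer around the other members, with 0 for Pard3 and 1 for Ctnna1 and Ctnnb1 in each table. The morula entry of Myh9 reached a posterior of only 0.749 when that table was aligned alone, and its name rests on the length recovered from the 8-cell table. A doubt remains for any single name: the entry given to Gapdh, an abundant gene in most cells, stood at only 0.938 to 3.03 FPKM (fragments scaled by exon length and by the total of the library) over the 8 libraries. Of the other abundant genes looked at, Tuba1b was also low, at 2.07 to 8.17 FPKM, while Actb stood at 292 to 763 FPKM.

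RefSeq promoter windows (build GRCm38.p6, 250 bases before to 50 bases after the annotated start) were examined for 8 of the 10 members. Cdh1 and Ctnna1 were left out, although Ctnna1 also had more RNA in morula than in 8-cell controls. Among the windows examined, those of Pard6b and Amot are printed because both genes had more RNA in morula than in 8-cell controls and because their windows differ in base composition. The Pard6b window (chr2:168080754-168081053, plus strand) held 77.0% G and C, and that of Amot (chrX:145487590-145487889, minus strand) 46.0%. Capitals mark the GC box GGGCGG, the CCAAT box CCAAT and the E-box CANNTG, searched on both strands, and no marked match overlapped another.
Pard6b: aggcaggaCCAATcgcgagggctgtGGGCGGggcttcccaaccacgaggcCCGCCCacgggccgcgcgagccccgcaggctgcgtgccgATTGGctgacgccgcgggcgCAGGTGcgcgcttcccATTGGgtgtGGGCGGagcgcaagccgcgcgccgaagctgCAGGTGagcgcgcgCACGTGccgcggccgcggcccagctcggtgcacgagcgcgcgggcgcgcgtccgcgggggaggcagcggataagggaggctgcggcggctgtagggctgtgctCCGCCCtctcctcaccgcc
Amot: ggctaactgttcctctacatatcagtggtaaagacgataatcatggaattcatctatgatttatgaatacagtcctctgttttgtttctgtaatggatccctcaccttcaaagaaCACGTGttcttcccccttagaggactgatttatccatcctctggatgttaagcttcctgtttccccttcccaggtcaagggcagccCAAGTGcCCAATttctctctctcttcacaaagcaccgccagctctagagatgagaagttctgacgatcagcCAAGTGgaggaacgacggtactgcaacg
Pard6b had 4 GC boxes, 3 CCAAT boxes and 3 E-boxes in this window. Amot had no GC box, 1 CCAAT box and 3 E-boxes. Among 32851 windows of 300 bases, 35.7% held the GC box, 37.4% the CCAAT box and 72.3% the E-box, so single matches are common. The motif GGAATG, bound by TEAD factors, was in 14.7% of all windows and in neither of these 2. Letters in a window are a description and say nothing of which factor acts there.

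Sequencing depth was similar in 7 of the 8 libraries. Totals recovered from the values ran from 31672356 to 43035090 fragments in these and reached 64814423 in library B of the 8-cell TMZ group. The 8-cell TMZ columns share 1 header and cannot be numbered, and are therefore named library A and library B. Library A stood apart, with 19466 entries above 0 against 21813 to 25336 in the other 8-cell libraries, and its correlation with library B over 10021 entries (Pearson r = 0.937) was lower than that of any other pair at that stage. Among markers of early embryos, Dppa3, a gene of oocytes and early embryos, stood at 10700 to 19500 FPKM and Klf5 at 26.7 to 86.8 FPKM over all libraries. Others were low at the 8-cell stage, where Sox2 had 0 to 0.120 FPKM, Cdx2 0.369 to 1.10 and Gata3 1.08 to 1.67. Of 14 cumulus and granulosa cell markers 6 could be assigned in each table, and of these only Amhr2 passed 1 FPKM in a library (6.42 to 19.5 FPKM). The study describes the libraries of a group as biologically independent replicates, and p-values measure the spread between them. Its methods name 6 biological replicates for the 8-cell and morula embryos, and how these relate to the libraries is not explained.

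Levels per length differed widely among the members. In the 8-cell controls Rhoa was highest (59.4 ± 2.34 FPKM, SD, n = 2), followed by Ctnna1 (10.6 ± 1.70), Cdh1 (7.11 ± 2.495) and Ctnnb1 (5.82 ± 3.04). Pard6b (2.78 ± 1.30), Prkci (2.64 ± 0.218) and Myh9 (1.26 ± 0.0976) came next, and Amot (0.598 ± 0.514), Pard3 (0.390 ± 0.0878) and Ezr (0.363 ± 0.223) were below 1 FPKM on average. Neighbours in this order from Cdh1 to Prkci overlapped between libraries, as did Amot, Pard3 and Ezr, whereas Rhoa and Ctnna1 were each above every lower gene in both libraries. Within each 8-cell control library, Cdh1 was also above Ctnnb1 and Ctnnb1 above Pard6b. In the morula controls the order began with the same 6 genes, and there Rhoa (64.0 ± 5.23 FPKM), Ctnna1 (17.4 ± 0.792), Cdh1 (8.97 ± 0.935), Ctnnb1 (6.78 ± 0.0827) and Pard6b (6.10 ± 0.155) did not overlap with one another. Prkci (1.93 ± 0.511), Amot (1.504 ± 0.282), Ezr (0.992 ± 0.519) and Myh9 (0.808 ± 0.162) followed, each overlapping with the one before it from Amot on, and Pard3 (0.490 ± 0.0140) was lowest, below both values of Myh9. These levels divide by the length of all annotated exons, which for Rhoa comes to 7494 bases, so a gene whose usual transcript is much shorter than that is given a lower level than its molecules would have.

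**Figure D1:**
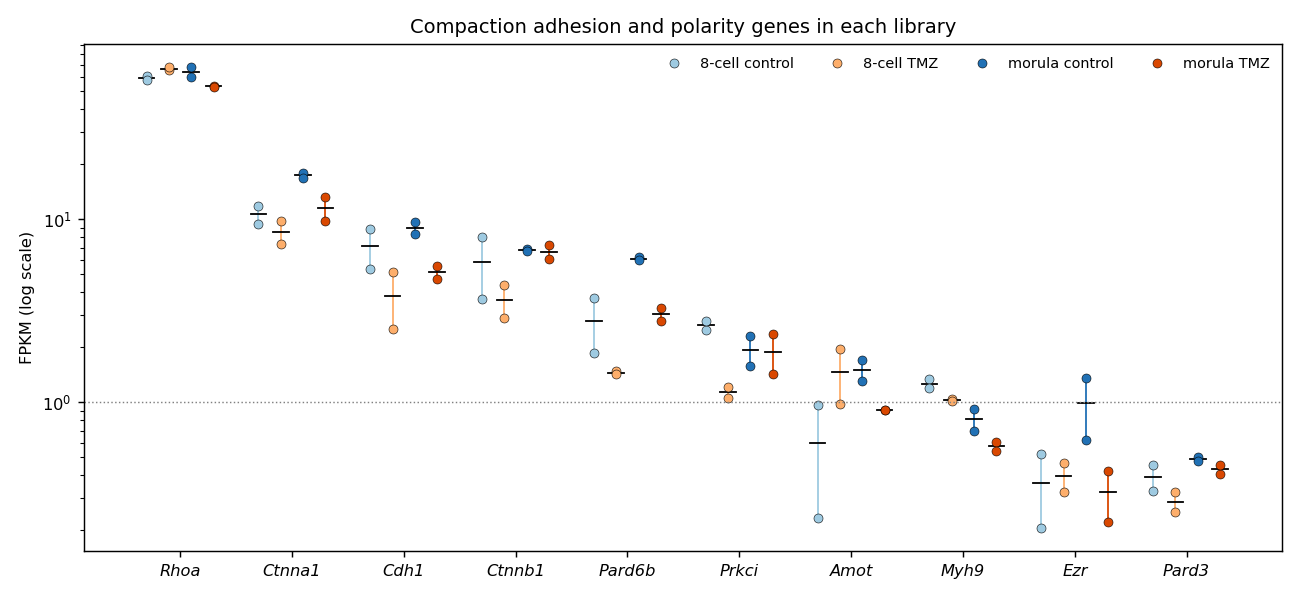
FPKM of the 10 genes (log axis) in each of the 8 libraries, coloured by group; points are libraries, black bars group means of 2, coloured lines the range, and the dotted line marks 1 FPKM. Rhoa stays between 52.8 and 68.0 FPKM in all libraries, while both morula controls of Pard6b (5.99 and 6.21) lie above its other 6 libraries.

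The first comparison asked how the genes differ between 8-cell and morula control embryos. The labels give the stage and do not say whether the embryos had compacted. Pard6b, Ctnna1 and Amot counted as higher in the morula than in the 8-cell controls, and none of the 8 members tested counted as lower. A gene counted as changed when the unadjusted P of limma was under 0.05 and the log2 fold change of FPKM + 1 was beyond 0.5, with cut-offs that the study applied to DESeq2 results on counts, which were not analysed here. Of all 8258 genes tested, 8.32% were called higher and 14.3% lower by this rule, and the 3 of 8 members called higher are read against that. Both morula values were above both 8-cell values for 22.2% of these genes and for 3 of the 8 members, and below them for 32.6% and for 2 members. No member reached an adjusted p under 0.05, whereas 217 of the 8258 genes did. The median log2 fold change was 0.30 over the 8 members and -0.07 over all genes tested. Stage, table and library preparation cannot be told apart in this comparison, since each stage was deposited in a table of its own. In bulk libraries, fewer cells of a kind and less RNA per cell cannot be told apart either.

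Among the PAR complex genes tested, only Pard6b passed the call rule between the stages. It stood at 3.70 and 1.86 FPKM in the 8-cell controls and at 6.21 and 5.99 FPKM in the morula controls. The groups did not overlap, and the lower 8-cell value was that of replicate 2. The log2 fold change was 0.95 ± 0.31 (SE; 95% interval 0.22 to 1.68; adjusted p = 0.132, limma). Prkci, the kinase of the complex, had 2.49 and 2.80 FPKM in the 8-cell controls and 1.57 and 2.29 FPKM in the morula controls. Both morula values were lower, but the change did not pass the test (log2 fold change -0.32 ± 0.27, adjusted p = 0.509, limma). Pard3, the scaffold, was under 1 FPKM in every library and was not tested. It had 0.328 and 0.452 FPKM in the 8-cell controls and 0.480 and 0.4995 FPKM in the morula controls.

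Among the adhesion genes, the α-catenin gene Ctnna1 rose from 11.8 and 9.43 FPKM to 17.9 and 16.8 FPKM. The 4 values did not overlap between the stages (log2 fold change 0.67 ± 0.24, adjusted p = 0.159, limma). Cdh1 had 8.88 and 5.35 FPKM in the 8-cell controls against 9.64 and 8.31 FPKM in the morula controls, which overlapped (0.33 ± 0.30, adjusted p = 0.543). Ctnnb1 had 7.96 and 3.67 FPKM against 6.84 and 6.72 FPKM, with the morula values inside the 8-cell range (0.27 ± 0.35, adjusted p = 0.685). In both genes the 8-cell replicates differed from each other by more than the stages did.

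Amot rose from 0.962 and 0.234 FPKM in the 8-cell controls to 1.70 and 1.30 FPKM in the morula controls. The values did not overlap, and 8-cell replicate 2 was far below replicate 1, on 64 against 330 recovered fragments. The log2 fold change was 0.68 ± 0.29 (adjusted p = 0.213, limma), the weakest of the 3 calls. Rhoa had 61.0 and 57.7 FPKM against 60.3 and 67.7 FPKM, which overlapped (0.10 ± 0.20, adjusted p = 0.797). For Myh9 the values were 1.33 and 1.195 FPKM against 0.693 and 0.922 FPKM, lower in both morula libraries without passing the test (-0.33 ± 0.24, adjusted p = 0.447). Ezr, under 1 FPKM on average and not tested, had 0.521 and 0.206 FPKM against 0.626 and 1.36 FPKM.

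Calls at this step were lost when single libraries were left out. Without 8-cell control replicate 2 none of the 3 genes passed the test (log2 fold changes of 0.59 for Pard6b, 0.52 for Ctnna1 and 0.35 for Amot), and none did without morula control replicate 1, where the values were close to those above (0.93, 0.62 and 0.57) and their standard errors larger. Ctnnb1 was called without 8-cell control replicate 1 (0.74) and stood at -0.20 without replicate 2. Without morula control replicate 2 Pard6b was called (0.98) while Ctnna1 (0.71) and Amot (0.80) were not, and Amot also missed the threshold with a pseudocount of 0.1 and in 3 further settings.

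The next comparison asked what TMZ did to these genes in morulae. Pard6b, Cdh1 and Ctnna1, the first of them a PAR complex gene and the other two genes of the cadherin-catenin complex, fell in treated morulae, and no member rose. Of all 9685 entries tested, 10.7% were called lower and 7.16% higher, against 3 and 0 of the 7 members tested. Both treated values were above both controls for 22.3% of entries and for 0 of the 7 members, and below them for 33.3% and for 5 members. The median log2 fold change was -0.39 over these members and -0.08 over all entries. At an adjusted p under 0.05 there were 3 entries among all tested and no member.

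Pard6b had 6.21 and 5.99 FPKM in control morulae and 2.77 and 3.27 FPKM in treated ones. The treated values were thus close to those of the 8-cell controls (3.70 and 1.86 FPKM), and control and treated morulae did not overlap. Its log2 fold change was -0.82 ± 0.21 (SE; 95% interval -1.32 to -0.32; adjusted p = 0.167, limma). Among all entries tested, 3.94% had a lower log2 fold change. It passed the call rule in every setting in which it was tested, with each library left out in turn included.

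Cdh1 had 9.64 and 8.31 FPKM in control morulae and 4.73 and 5.52 FPKM in treated ones, again without overlap (-0.70 ± 0.21, adjusted p = 0.181, limma). Ctnna1 had 17.9 and 16.8 FPKM in controls and 9.80 and 13.2 FPKM under TMZ (-0.57 ± 0.21, adjusted p = 0.223). The control groups of these values are the same libraries as in the stage comparison, so a high pair of morula controls enters both. Ctnnb1, the third gene of the complex, was the exception: with 6.84 and 6.72 FPKM in controls and 6.05 and 7.26 FPKM under TMZ its treated values enclosed the controls (-0.03 ± 0.20, 95% interval -0.52 to 0.46, adjusted p = 0.947). Calls for Cdh1 were lost without morula control replicate 1 (-0.61) and without TMZ replicate 1 (-0.61). Of the fits with a library left out, Ctnna1 was called in that without TMZ replicate 2 alone, and its value without TMZ replicate 1 was -0.37. Both genes missed the rule with all 8 libraries in 1 fit, at the same fold changes, and Ctnna1 also missed it when the libraries were rescaled by median ratios (-0.45).

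The other members did not pass the test in morulae. Amot had 1.70 and 1.30 FPKM in controls and 0.911 and 0.909 FPKM under TMZ (-0.39 ± 0.22, adjusted p = 0.354), and voom on recovered fragments called it lower (-0.71), for 4 called members in all. Rhoa had 60.3 and 67.7 FPKM against 53.7 and 52.8 FPKM (-0.26 ± 0.16, adjusted p = 0.387). Both genes were lower in both treated libraries than in either control, as were 33.3% of all entries tested. Prkci had 1.57 and 2.29 FPKM against 2.36 and 1.43 FPKM, which overlapped (-0.03 ± 0.27, adjusted p = 0.962), and the sign of this value and of that for Ctnnb1 turned under median-ratio scaling. Myh9 (0.693 and 0.922 against 0.609 and 0.542 FPKM), Ezr (0.626 and 1.36 against 0.223 and 0.422 FPKM) and Pard3 (0.480 and 0.4995 against 0.407 and 0.453 FPKM) averaged under 1 FPKM and were not tested, and all 3 were lower in both treated libraries. The share of 33.3% covers entries averaging at least 1 FPKM, and none was worked out for entries below that. Fitted without this minimum, their unadjusted P values were 0.367, 0.0972 and 0.720 (limma).

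**Figure D2:**
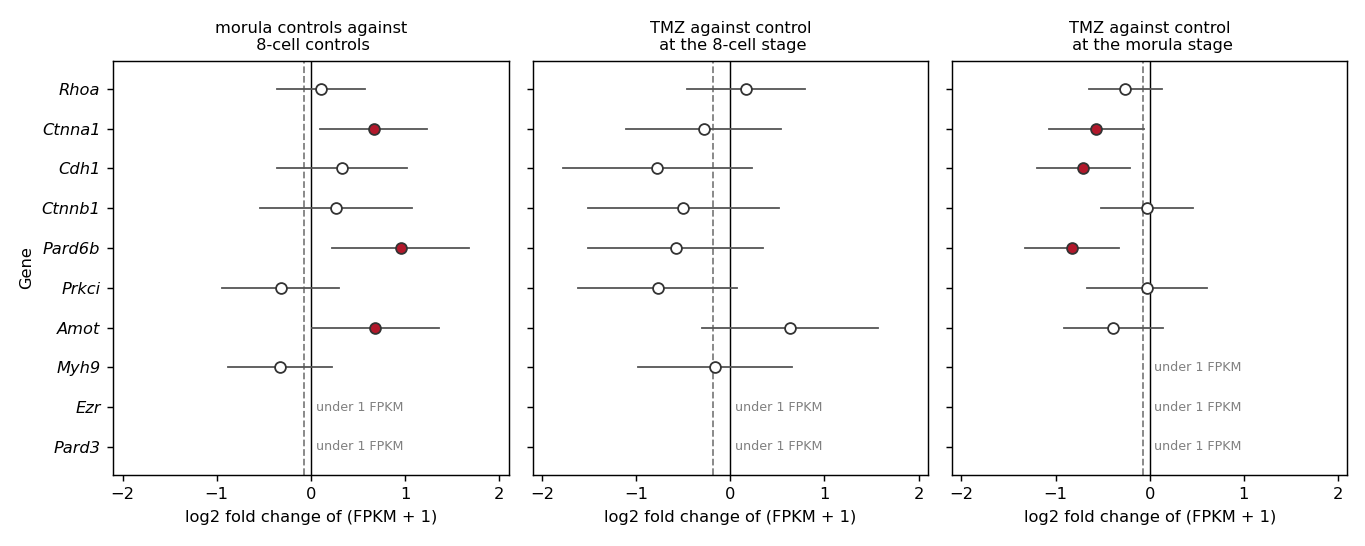
Log2 fold change of FPKM + 1 (points) with 95% intervals (bars) for each gene in the 3 comparisons; filled points passed the call rule, the dashed line is the median of all entries or genes tested, and genes averaging under 1 FPKM were not tested. Pard6b and Ctnna1 are filled on the right of 0 between stages (0.95 and 0.67) and on its left in treated morulae (-0.82 and -0.57).

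At the 8-cell stage no member passed the test under TMZ. The same rule called 1.35% of 10021 entries higher and 4.96% lower, and limma gave 632 entries an unadjusted P under 0.05 and none an adjusted p under 0.05 (smallest 0.154). The median log2 fold change was -0.39 over the 8 members tested and -0.19 over all entries. After rescaling by median ratios the median of all entries was 0.05, and the split of calls went from 135 higher and 497 lower to 292 and 254. Voom on recovered fragments called 1 member.

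Prkci came closest. It had 2.49 and 2.80 FPKM in controls and 1.05 and 1.22 FPKM in treated embryos, without overlap, and its log2 fold change was -0.77 ± 0.37 (95% interval -1.61 to 0.07; adjusted p = 0.780, limma). It passed the call rule in 3 alternative fits: without a trend in the variance, with all 8 libraries in 1 fit and by voom on recovered fragments. Cdh1 had 8.88 and 5.35 FPKM against 2.499 and 5.13 FPKM, and the lower treated value was that of library A (-0.77 ± 0.44, adjusted p = 0.790). Pard6b had 3.70 and 1.86 FPKM against 1.48 and 1.42 FPKM (-0.58 ± 0.41, adjusted p = 0.809). These 3 genes and Myh9 were lower in both treated libraries than in either control, and so were 29.6% of all entries tested.

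Of the remaining members, Ctnnb1 (-0.50 ± 0.45, adjusted p = 0.8501), Ctnna1 (-0.28 ± 0.36, adjusted p = 0.891) and Myh9 (-0.16 ± 0.36, adjusted p = 0.952) had intervals wide enough to hold changes past the call rule in either direction. Rhoa had 61.0 and 57.7 FPKM in controls and 65.5 and 68.0 FPKM under TMZ (0.16 ± 0.28, adjusted p = 0.926). Amot had 0.962 and 0.234 FPKM against 1.96 and 0.981 FPKM (0.64 ± 0.41, adjusted p = 0.801, limma). Rhoa and Amot, 2 of the 8 members tested, were higher in both treated libraries than in either control, as were 8.09% of all entries. Ezr (0.325 and 0.464 FPKM under TMZ) overlapped with its controls, and Pard3 (0.2504 and 0.323 FPKM under TMZ) lay below them, neither being tested. Without library A no member was called, and without library B Cdh1 (-1.18) and Amot (0.93) were.

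Whether TMZ acted differently at the 2 stages was tested as an interaction over all 8 libraries. By this test 7.97% of 8082 genes had an unadjusted P under 0.05, and none of the 7 members tested did. Amot came close to the threshold. Its treated libraries were above the controls at the 8-cell stage and below them in morulae, and the morula effect minus the 8-cell effect was -1.02 ± 0.45 (adjusted p = 0.626, limma). It passed with median-ratio scaling and when only genes assigned at a posterior of 0.99 entered. The differences for Prkci (0.74 ± 0.40, adjusted p = 0.747) and Rhoa (-0.42 ± 0.27, adjusted p = 0.811) did not pass. For Pard6b (-0.24, 95% interval -1.20 to 0.72), Cdh1 (0.07, -1.03 to 1.17) and Ctnna1 (-0.28, -1.13 to 0.56), called at the morula stage alone, the interval held no difference and differences of more than 0.5 both ways.

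Several members belong to families, and the levels of their relatives show which carried most RNA among the genes that were assigned. Rhoc, Msn and Pard6g, relatives of Rhoa, Ezr and Pard6b, were assigned in neither table. Cdh1 was above Cdh3, the P-cadherin gene (0.299 to 0.842 FPKM), and Cdh2, the N-cadherin gene (0 to 0.0911 FPKM), in 8 of 8 libraries. Ctnnb1 was likewise above its relative Jup, which encodes plakoglobin (0.336 to 1.68 FPKM), and Ctnna1 above the neural α-catenin gene Ctnna2 (0 to 0.0273 FPKM). Rhoa exceeded Rhob (0.125 to 1.44 FPKM) by 41.8-fold or more in every library. In these families the member is the one with most RNA among the relatives that were assigned.

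In the polarity and cortex families, Pard3 aside, it was the other way round. Pard3 was above Pard3b (0 to 0.00906 FPKM) in all 4 morula libraries, the only ones in which Pard3b was assigned. Pard6a, a relative of Pard6b, stood at 5.56 to 11.1 FPKM and was above it in 8 of 8 libraries. The ratio of Pard6b to Pard6a was 0.365 and 0.334 in the 8-cell controls, 0.845 and 0.538 in the morula controls, and 0.351 and 0.460 in treated morulae. Both morula controls were thus above every other library in this ratio, which does not depend on how the libraries are scaled. Prkcz, the other atypical protein kinase C, had 4.05 to 5.66 FPKM against 1.05 to 2.80 FPKM for Prkci. Rdx, the radixin gene (3.56 to 7.60 FPKM), was at least 5.37 times as high as Ezr in each library. Myh10 (1.44 to 3.16 FPKM) was above Myh9, and Amotl2 (1.72 to 2.94 FPKM) above Amot, in 8 of 8 libraries, while Myh14 and Amotl1 were below them. Levels between genes depend on the annotated exon lengths and were not tested.

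**Figure D3:**
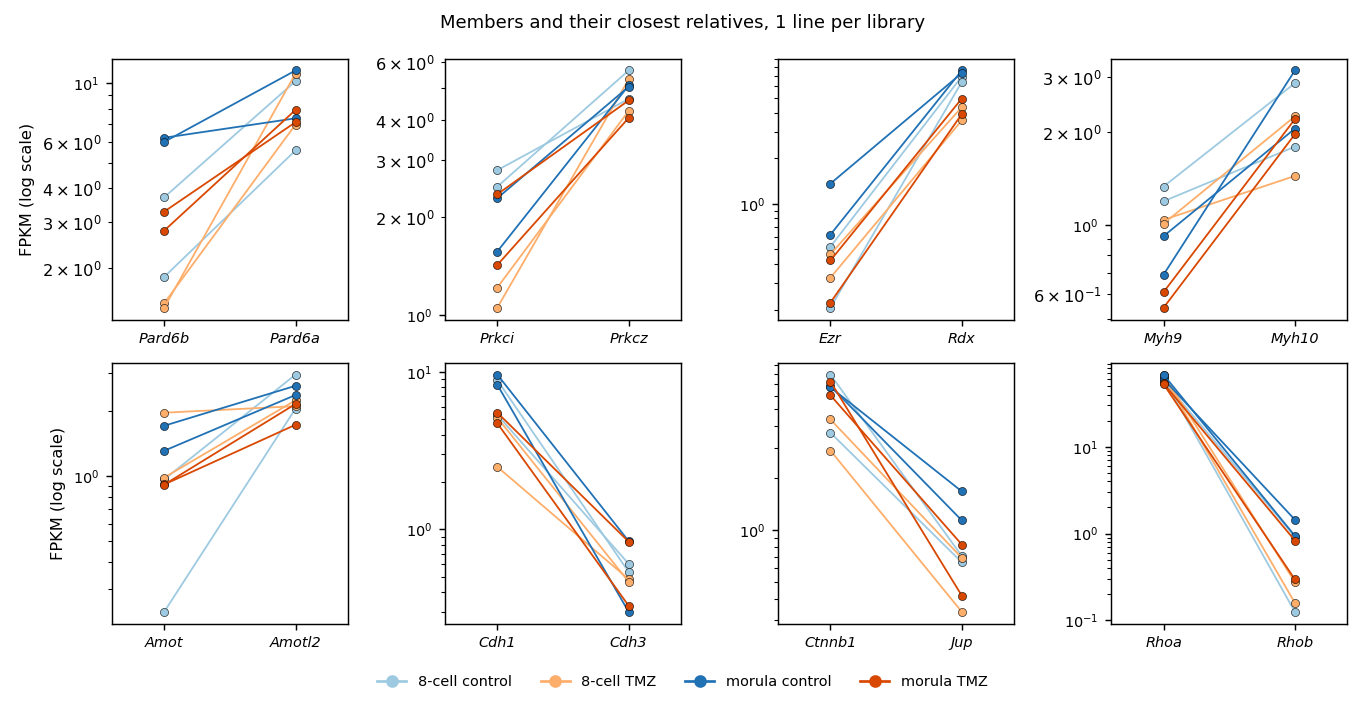
FPKM (log axes, each panel with its own range) of 8 members and a relative, with 1 line per library in the colour of its group. Pard6a, Prkcz, Rdx, Myh10 and Amotl2 lie above the member in all 8 libraries, and Cdh3, Jup and Rhob below it.

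The members were then set beside the other genes of their pathways, in lists that also hold the members. In treated morulae, 2 of 12 tested genes of the apical and basolateral polarity list other than the members were called lower and 0 higher, against 10.7% and 7.16% of all entries. These were Mark2 (2.46 and 2.59 FPKM in controls, 1.31 and 0.811 under TMZ; -0.78 ± 0.23, adjusted p = 0.183, limma) and Mark3 (-0.58 ± 0.22, adjusted p = 0.223), kinases of the PAR1 family that mark the basolateral side. Mark3 lost the call with any 1 library left out (-0.68 to -0.48), with median-ratio scaling (-0.48) and with all 8 libraries in 1 fit, and Mark2 lost it without control replicate 2 (-0.76) and without TMZ replicate 2 (-0.61). Of 6 other adhesion genes tested, 0 were called in either direction, with a median log2 fold change of -0.01. Cdc42 and Rac1, small GTPases that act with the PAR complex, and Prkcz were not called.

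In the list of ezrin family and actomyosin genes, 3 of 14 others were called lower and 1 higher in treated morulae, beside the 10.7% and 7.16% of all entries. The 3 lower ones are apical or cortical components: Actn4, an actin crosslinker (12.1 and 12.9 FPKM to 7.19 and 5.26; -0.91 ± 0.22, adjusted p = 0.167), Nherf1, a scaffold bound by ezrin family proteins (5.19 and 6.04 FPKM to 2.12 and 3.05; -0.89 ± 0.23, adjusted p = 0.169), and Rdx (7.60 and 7.30 FPKM to 3.91 and 4.96; -0.64 ± 0.21, adjusted p = 0.204). Nherf2, a relative of Nherf1, rose (0.755 and 0.789 FPKM to 1.89 and 3.08; 0.95 ± 0.25, adjusted p = 0.169). For the list around RHOA, with the same shares of all entries beside it, 1 of 7 others was called lower, Arhgdia, whose product binds RHOA and keeps it in the cytosol (-0.99 ± 0.27, adjusted p = 0.176), and 1 higher, Arhgef2, an activator of RHOA (1.39 and 0.736 FPKM to 8.73 and 3.09; 1.63 ± 0.42, adjusted p = 0.169). All of these calls rest on the unadjusted P. Rdx lost it in 3 of the 4 fits with a library left out and was called in that without TMZ replicate 2 (-0.78), with -0.50 without TMZ replicate 1. Arhgdia lost it without control replicate 2 (-0.78) and without TMZ replicate 2 (-0.65), and Arhgef2 was still called without TMZ replicate 1 but at 1.01.

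Of the 16 other AMOT and Hippo genes tested in morulae, 3 were called lower and 0 higher, against 10.7% and 7.16% of all entries. Tead4, the transcription factor at the end of the pathway in outer cells, had 28.4 and 33.7 FPKM in controls and 19.3 and 13.9 FPKM under TMZ (-0.88 ± 0.22, adjusted p = 0.167, limma). Nf2, an upstream scaffold (-0.73 ± 0.21, adjusted p = 0.176), and Wwtr1, a co-activator related to Yap1 (-0.71 ± 0.23, adjusted p = 0.198), were the others. Wwtr1 lost the call without control replicate 2 (-0.45), without TMZ replicate 1 (-0.75) and without TMZ replicate 2 (-0.67), and Nf2 lost it without TMZ replicate 1 (-0.69). The list had a median of -0.27 over these 16, against -0.08 over all entries. At the 8-cell stage none of the other genes in the 5 lists passed the call rule under TMZ. Their medians there lay between -0.36 and -0.24, against -0.19 over all entries.

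Between the stages in controls, where 8.32% of all genes were called higher and 14.3% lower, 1 of 6 other adhesion genes was called higher, Epb41l5, which encodes a cytoskeletal adaptor at the membrane (1.06 and 0.348 FPKM to 4.12 and 2.16; 1.27 ± 0.34, adjusted p = 0.0829, limma). Rac1 (0.57 ± 0.23, adjusted p = 0.187) was called among 12 other polarity genes, and the actin gene Actb (292 and 459 FPKM to 716 and 763; 1.01 ± 0.23, adjusted p = 0.0615) and the actin crosslinker gene Actn4 (0.68 ± 0.28, adjusted p = 0.2003) among 14 other cortex genes. Called lower were Rock1, a kinase activated by RHOA and 1 of 8 others in its list (6.50 and 4.37 FPKM to 1.95 and 1.48; -1.23 ± 0.29, adjusted p = 0.0641), and 2 of 16 other Hippo genes, Sav1 (-0.82 ± 0.25, adjusted p = 0.116) and Mob1b (-0.63 ± 0.26, adjusted p = 0.205). Of these, Rac1, Actn4, Sav1 and Mob1b lost the call when a library was left out, Rac1 and Actn4 in 3 of 4 fits each, with 0.38 for Rac1 without morula control replicate 2 and 0.39 for Actn4 without 8-cell control replicate 2.

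**Figure D4:**
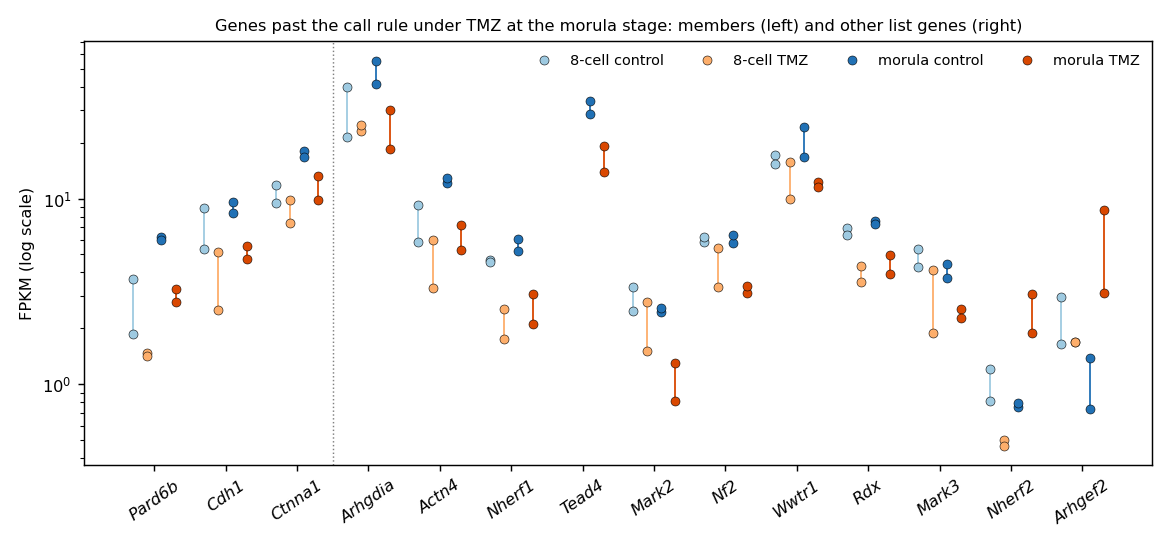
FPKM (log axis) in each library of the genes that passed the call rule under TMZ at the morula stage, with members left of the dotted line and other genes of the lists right of it; points are libraries and lines join the 2 of a group. Control (dark blue) and treated (dark orange) morulae do not overlap for any of them, Nherf2 and Arhgef2 being higher under TMZ, and Tead4 has no 8-cell points because it was not assigned there.

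Stage markers moved in the same comparisons, and their part in the members' changes was not tested. Of 11 embryo markers tested, 6 were called higher and 1 lower from 8-cell to morula controls, against 8.32% and 14.3% of all genes. In treated morulae 7 were called lower and 0 higher, against 10.7% and 7.16% of all entries. The levels run from 8-cell controls through 8-cell TMZ and morula controls to treated morulae in the sentences that follow. Cdx2, a trophectoderm gene, had 1.10 and 0.708, 0.699 and 0.369, 3.94 and 4.01, and 2.75 and 1.19 FPKM. The keratin gene Krt8 had 2.05 and 3.40, 1.80 and 2.50, 19.5 and 22.7, and 11.2 and 6.43 FPKM. Its partner Krt18 had 7.94 and 4.24, 12.7 and 8.13, 58.4 and 41.3, and 40.4 and 44.8 FPKM. Pou5f1, which encodes OCT4, had 19.5 and 11.0, 16.1 and 10.9, 30.2 and 42.4, and 19.0 and 11.0 FPKM. Utf1 had 32.4 and 30.0, 26.9 and 12.5, 68.6 and 86.5, and 39.6 and 41.1 FPKM. Klf5, the marker that was lower in morulae, had 84.6 and 86.7, 86.8 and 84.3, 52.6 and 50.8, and 38.3 and 26.7 FPKM. In these genes, apart from Krt18, both treated morula values were below both morula controls, as for Pard6b, Cdh1 and Ctnna1. Dppa3 went the other way in morulae, with 10700 and 15000, 19500 and 14610, 10840 and 13230, and 14150 and 17620 FPKM. Both of its treated morula values were above both controls, as for 22.3% of all entries tested, and it was not called. Nanog (16.8 to 30.7 FPKM in controls of both stages, 11.5 to 18.8 under TMZ), Tfap2c (21.1 to 25.9 and 11.1 to 20.7), Gata3 (1.26 to 3.90 and 1.08 to 4.22) and Dppa5a (5370 to 8921 and 6745 to 8888) complete the assigned markers beside Sox2, which was assigned at the 8-cell stage alone (0 to 0.120 FPKM).

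Of the assigned markers of other cells, Amhr2, Hba-a1 and Cd68 were above 1 FPKM and the rest below it. Amhr2 had 19.5 and 13.9 FPKM in the 8-cell controls, more than any member but Rhoa in those libraries, and it was called lower under TMZ at that stage (8.41 and 8.21 FPKM; -0.91). Hba-a1 had 2.46 to 11.3 FPKM and Cd68 1.51 to 6.54 FPKM over the 8 libraries. Their part in the members' values was not tested. The summed level of the assigned cumulus and granulosa markers was 13.9 to 19.6 FPKM in 8-cell controls, 8.34 to 8.42 in 8-cell TMZ, 7.41 to 13.3 in morula controls and 6.42 to 8.74 in morula TMZ, nearly all of it from Amhr2. Tnfaip6, a defining cumulus gene, was at 0 in 6 of 8 libraries. For the 5 assigned of 10 leukocyte and erythroid markers the sums were 13.7 to 15.1, 7.02 to 12, 8.50 to 10.1 and 7.53 to 7.68 FPKM in the same order of groups, and Ptprc, the common leukocyte antigen gene, was at no more than 0.0165 FPKM in any library.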

How the data were processed

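RNA was measured in 8 libraries of whole embryos, amplified with a full-length single-cell mRNA kit. Per the labels' processing notes the authors used fastp 0.23.4, STAR 2.7.9a, featureCounts 2.0.6 and GRCm39, and tested counts with DESeq2. They deposited FPKM values, in which fragments are divided by exon length and by the total of each library, in a table per stage without gene names. The Ensembl release and strand setting are not given in the sources used here, so reads of overlapping or antisense genes cannot be told apart. Gene bodies were counted in fragments of amplified cDNA. Intervals cover the spread between libraries, and an amplification bias that all libraries share lies outside them.

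From the whole multiples in the deposited FPKM values the library totals were recovered, and 97.5% to 98.1% of each total was accounted for. Each fragment number is the lowest that gives whole numbers, so the true one may be a multiple of it. Row lengths were aligned, in row order, to exon-union lengths of GENCODE vM39 genes in Ensembl order with a pair hidden Markov model (python 3.11.15, numba 0.67.0), first alone and then with lengths learned from the other table, and names were kept at a posterior of at least 0.95. No expression value entered. Of 31899 and 29202 entries, 24017 and 22263 were assigned, and 18040 of 18058 genes assigned in both tables alone had compatible lengths. When 600 genes were removed from the reference, 28 and 16 of their entries went to another gene. Ribosomal protein genes stood at 1 FPKM or more on average in 62 of 62 and 61 of 62 cases, and olfactory receptor genes in 4 of 293 and 4 of 170.

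Values were tested as log2(FPKM + 1) with limma 3.58.1 (R 4.3.3, variance trend) over entries averaging at least 1 FPKM in the libraries fitted, with Benjamini-Hochberg adjustment over all of them, and a call needed an unadjusted P under 0.05 together with a log2 change of more than 0.5 either way. A pseudocount of 1 understates changes of low genes. Code was tested on simulated data with known changes. Replicate numbers did not pair the libraries. Beyond the 10 members, up to 4 called genes without overlap were named per list and comparison. The members and lists were chosen with earlier results of these data known, and the alternatives are given in the closing section.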

Additional observations from a re-analysis of the deposited data

Results flagged for a closer look

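Of the 22 genes named with a test in all 8 libraries, 2 had a TMZ effect that differed between the stages at an unadjusted P under 0.05, and neither is one of the 10 compaction genes. For Nherf2, the scaffold gene related to Nherf1, the morula effect minus the 8-cell effect was 1.38 ± 0.39 on the log2 scale (adjusted p = 0.410, limma). Its libraries stood at 1.203 and 0.814 FPKM in 8-cell controls, 0.501 and 0.467 in 8-cell TMZ, 0.755 and 0.789 in morula controls and 1.89 and 3.08 in morula TMZ, so treated embryos were lower at the first stage and higher at the second. For Arhgef2, the RHOA activator gene, the difference was 1.90 ± 0.59 (adjusted p = 0.456), with 1.65 and 2.97, 1.70 and 1.70, 1.39 and 0.736, and 8.73 and 3.09 FPKM in the same order of groups. These genes were named for their change in treated morulae, which is part of the difference, so the test is not independent of the choice. Among all 8082 genes 7.97% had such a P.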

How the results depend on the processing

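The call for Pard6b in treated morulae was kept in every alternative that tested it, and those of the other called members depended on the setting, as given beside them. Under TMZ at the 8-cell stage the main counts were 135 entries higher, 497 lower and 0 members. A minimum mean of 5 FPKM left 60 and 221 entries, median-ratio scaling gave 292 and 254, all 8 libraries in 1 fit gave 857 lower, and 1 member (Prkci) was called in that fit, without the variance trend and by voom. Leaving out 1 library each gave 83 to 474 entries higher, 193 to 1542 lower and 0 to 2 members, so these counts moved with single libraries. In morulae the main counts were 693, 1040 and 3 members, a minimum of 5 FPKM left 461 and 597, median-ratio scaling gave 1023 and 685, and all 8 libraries in 1 fit gave 322, 447 and 1 member. By voom 4 members were called there, Amot (-0.71) among them. Leaving out 1 library each gave 350 to 813 entries higher, 436 to 1056 lower and 1 to 3 members. The sign of Ctnnb1 turned with median-ratio scaling (0.083) and with libraries left out (-0.14 to 0.086), as did that of Prkci (0.056, and -0.26 to 0.21), and neither passed the threshold in these. Between stages the main counts were 687, 1178 and 3 members, a minimum of 5 FPKM left 457, 602 and 1 member, and median-ratio scaling gave 1006 and 915. Leaving out 1 library each gave 403 to 931 entries higher, 793 to 1104 lower and 0 to 4 members, and the value of Ctnnb1 ran from -0.20 to 0.74, negative without 8-cell control replicate 2. For the interaction 1 member (Amot) passed with median-ratio scaling and at a posterior of 0.99, and under that scaling Cdh1 (-0.075) and Mark3 (-0.13) changed sign. Rescaling moved the median of all entries from -0.19 to 0.05 at the 8-cell stage, from -0.08 to 0.03 in morulae and from -0.07 to 0.03 between stages. A lone library left in a group is assumed to vary like the other group. Beyond the effect of fewer entries or libraries, the cause was not tested.

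Same-numbered libraries deviated together only weakly (correlations of 0.0762 and 0.0659 over 2 pairs), so the numbers were not taken as pairs. With the replicate block, 838 entries were higher and 1151 lower in treated morulae and 699 and 1211 between stages, with 3 members called in each, and among the genes named only Mob1b lost its call. No paired analysis was possible because the columns carry no numbers for TMZ against control at the 8-cell stage. Aligning each table alone, an alternative added after seeing the data like those for the interaction and for genes that are not members, changed no call of a member.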
